A study of Mus musculus with 12 samples.

Results

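Whole testes from stages VIII to XI of the cycle of the seminiferous epithelium were compared with testes from stages IV to VII. Sperm release takes place at stage VIII, the first stage of the later group, and retinoic acid rises around the same stages. The members were chosen by their stage labels: 4 arrays labelled VIII-IX and IX-XI, 2 samples each, against 4 arrays labelled IV-VI and VII, 2 samples each, so that 8 of the 12 arrays of the study entered the comparison. All mice were males of a mixed background 129/C57BL6, with no other allele or transgene given. As pups they had been given WIN 18,446, an inhibitor of retinoic acid synthesis, at 100 ug per gram each day for 7 days (from day 2 to day 8 after birth), then 200 ug of retinoic acid on day 9. Testes were collected, and staged by morphology, 43 to 49 days later, when the tubules are largely in step with each other. Every group carried this treatment, and no untreated testis was compared here. Whether both samples of a group are from different mice is not given in the labels, so each p-value reflects only how far these particular arrays differ, and part of that spread may be technical.

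In the mouse, germ cells at fixed steps of development lie together in the tubule wall, and the combinations follow each other in a cycle of numbered stages. Mature spermatids are released into the lumen at stage VIII, the event called spermiation. Around the same stages the level of retinoic acid rises: undifferentiated spermatogonia commit to differentiation, preleptotene spermatocytes enter meiosis, and round spermatids begin to elongate. Retinoic acid is made from retinol by retinol and retinal dehydrogenases, acts through RAR and RXR nuclear receptors, which bind repeats of the letters AGGTCA, and is degraded by CYP26 enzymes. Sertoli cells, the somatic cells of the tubule, hold the germ cells through junctions, let go of the sperm and engulf what the sperm shed.

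Promoter sequences of 4 named genes, taken from RefSeq and not read by the arrays, are shown here. Stra8, whose product drives entry into meiosis in response to retinoic acid, and Rxrg, the gene of retinoid X receptor gamma, are shown as retinoid genes that were higher in VIII to XI. The signal of Rxrg was among the dimmest 30% of genes. Defb33, a beta-defensin gene, had the largest rise of the named genes, and Golga7b is a strongly lower gene. They were chosen after their values were seen, from named genes with a match. The windows hold 250 bases before and 50 bases after a RefSeq start, all on the plus strand of GRCm38.p6, at chr6:34920698-34920997 for Stra8, chr1:167618015-167618314 for Rxrg, chr8:20892417-20892716 for Defb33 and chr19:42247328-42247627 for Golga7b. Rxrg and Golga7b each have a second RefSeq window, at chr1:167598112-167598411 and chr19:42255489-42255788, with 0 matches, which is not shown. Capitals mark AGGTCA or its complement read on the other strand.
Stra8: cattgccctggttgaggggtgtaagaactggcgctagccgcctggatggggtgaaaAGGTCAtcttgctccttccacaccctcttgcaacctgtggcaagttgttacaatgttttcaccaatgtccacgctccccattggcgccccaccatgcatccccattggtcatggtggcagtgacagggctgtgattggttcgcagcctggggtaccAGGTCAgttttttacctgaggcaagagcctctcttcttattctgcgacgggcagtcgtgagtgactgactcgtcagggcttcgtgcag
Rxrg: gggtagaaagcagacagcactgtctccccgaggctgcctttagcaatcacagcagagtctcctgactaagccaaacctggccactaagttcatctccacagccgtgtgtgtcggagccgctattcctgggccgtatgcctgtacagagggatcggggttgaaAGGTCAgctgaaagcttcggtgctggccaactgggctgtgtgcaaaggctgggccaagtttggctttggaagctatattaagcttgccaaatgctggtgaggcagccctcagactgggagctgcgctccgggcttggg
Defb33: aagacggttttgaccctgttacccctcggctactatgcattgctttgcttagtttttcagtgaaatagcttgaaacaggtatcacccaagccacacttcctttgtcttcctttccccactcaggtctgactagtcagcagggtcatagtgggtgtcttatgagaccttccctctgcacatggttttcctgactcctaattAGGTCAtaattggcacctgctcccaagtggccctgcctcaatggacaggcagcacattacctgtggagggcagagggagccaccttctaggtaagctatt
Golga7b: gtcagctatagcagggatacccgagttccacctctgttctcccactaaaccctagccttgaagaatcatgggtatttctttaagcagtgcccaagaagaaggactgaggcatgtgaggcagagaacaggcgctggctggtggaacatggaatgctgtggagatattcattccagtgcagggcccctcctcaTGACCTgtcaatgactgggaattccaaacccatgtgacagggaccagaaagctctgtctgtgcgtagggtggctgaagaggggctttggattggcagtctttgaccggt

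The matches began 194 and 38 bases before the start in Stra8, 88 in Rxrg, 50 in Defb33 and 59 in Golga7b. AGGTCA, on either strand, was present in 24.6% of 228 windows of genes at least 2-fold higher in VIII to XI and in 19.7% of 244 windows of genes at least 2-fold lower. It was present in 14.2% of 19115 windows of genes on the array and in 16.3% of all 32851 windows. CNCCTCAG, the motif reported for STRA8 and its partner MEIOSIN, was present in 7.46%, 9.43%, 8.69% and 7.94% of these sets in the same order, and the cyclic AMP response element TGACGTCA in 0.439%, 2.05%, 2.38% and 1.79%. The median GC content was 56.2% in windows of higher genes, 51.7% in windows of lower genes, 57.7% on the array and 52.7% over all windows. The windows belong to 182 higher and 202 lower genes. No motif contains another, and a match is only a description of these letters.

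Levels are log2 intensities, on which a difference of 1 means a 2-fold change, and differences are VIII to XI minus IV to VII. Each probe set has its own scale, so levels were compared between arrays and not between genes. The first principal component of the 8 arrays held 64.0% of the variance and separated the groups, with weights of 0.136 to 0.473 for the VIII to XI arrays and -0.461 to -0.217 for the IV to VII arrays. The weight of 0.136 was that of IX-XI sample 2, the VIII to XI array nearest to IV to VII. The second component held 12.9% and set VII sample 2 apart, with a weight of -0.783. On VII sample 2, the summed intensity of 14 Sertoli markers was 29783, against 19041 to 20798 on the VIII to XI arrays and 21072 to 21819 on the other IV to VII arrays. The 10 macrophage markers likewise summed to 6376 on VII sample 2 and to 4083 to 4827 on the other 7 arrays. For the tissue label, germ cell and Sertoli genes were read as levels: Ddx4, the germ cell helicase VASA, lay between 12.20 and 12.49 in VIII to XI and between 12.58 and 12.73 in IV to VII, and Clu, clusterin of Sertoli cells, between 12.02 and 12.18 in VIII to XI and between 12.21 and 12.70 in IV to VII. With no background level per probe set, these values do not test whether a cell type was present.

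Gene expression differed widely between stages VIII to XI and stages IV to VII, in both directions. Of 19946 genes, 4708 passed an adjusted p of 0.05 (limma, Benjamini-Hochberg), which is 23.6%. The higher genes numbered 2564 (12.9%), and the lower genes 2144 (10.7%). A difference of at least 2-fold was reached by 234 higher and 257 lower genes, and of at least 4-fold by 21 and 26. The median difference of called genes was 0.44 for higher and -0.48 for lower ones, against 0.04 over all genes. In 4188 of the called genes all 4 arrays of one group lay beyond all 4 of the other, and over all genes this held for 5244, or 26.3%. The number called was 2889 without IV-VI sample 1 and 2906 without IX-XI sample 1, and 5609 without VII sample 2 and IX-XI sample 2, the arrays that stood apart. Higher and lower genes numbered 1642 and 1247 without IV-VI sample 1, and 1589 and 1317 without IX-XI sample 1. A list count from a fit that leaves out arrays stands beside that fit's totals, not beside 12.9% and 10.7%. In all 8 fits that left out an array, 2689 of the genes were called. In bulk samples such as these, fewer cells of a type and less RNA per cell cannot be told apart.

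**Figure D1:**
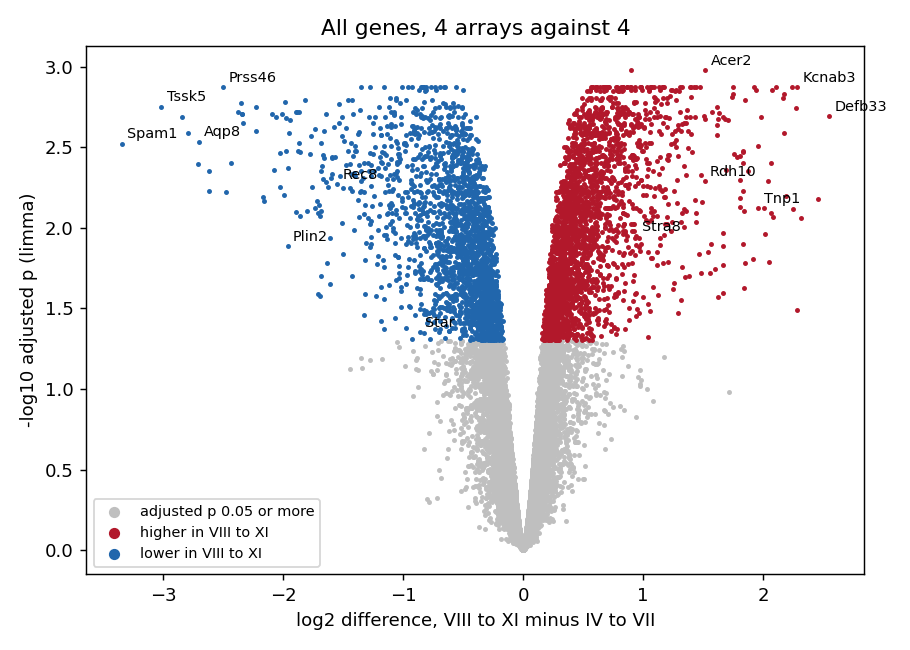
Each point is a gene, with the log2 difference VIII to XI minus IV to VII on the x axis and -log10 of limma's adjusted p on the y axis; colour marks the 2564 higher and 2144 lower genes. Of the genes labelled in the plot, Spam1 and Tssk5 lie farthest to the left, and Defb33 and Kcnab3 farthest to the right.

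The genes with the largest differences and widest gaps were chosen from called genes without overlap between groups, so their lack of overlap is no finding. Of the named genes, Defb33 (probe set 10577385) had the largest rise, with levels of 11.69 and 11.68 in VIII-IX and 11.30 and 10.82 in IX-XI, against 7.86 and 8.82 in IV-VI and 9.45 and 9.16 in VII. No array overlapped, the difference was 2.55 ± 0.33 (SE, n = 4 each), a 5.85-fold rise, and limma's adjusted p was 0.002. Kcnab3, an auxiliary subunit of voltage-gated potassium channels, had 10.48, 10.02, 10.13 and 9.85 in VIII to XI, against 7.43, 7.49, 8.41 and 8.01 in IV to VII. Its nearest arrays were 1.44 apart, the widest gap among the higher named genes. Pou5f2, a POU transcription factor of male germ cells, had 10.88, 11.10, 10.75 and 9.60 in VIII to XI, against 8.26, 8.26, 8.31 and 8.41 in IV to VII. Its IV to VII arrays agreed closely, and IX-XI sample 2 was the lowest of the VIII to XI arrays.

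Other genes rose by between 1.93 and 2.32 log2 units, with no overlap of arrays, again a condition of their choice. Faiml, related to an inhibitor of apoptosis, rose 4.99-fold, to 10.54 ± 0.23 in VIII to XI, against 8.22 ± 1.13 in IV to VII (SD, n = 4 each). Its IV-VI arrays stood at 7.88 and 6.78, and its VII arrays, at 9.25 and 8.98, lay between these and VIII to XI. This order only describes the arrays, as the test of VII against IV-VI called 0 genes. The same order, IV-VI below VII below VIII to XI, held for Noxred1 (4.75-fold), Trim42 (4.58-fold), a tripartite motif protein, and Fam71b (4.23-fold), of the GARIN family of the Golgi and acrosome. It also held for Defb33 and Kcnab3 above. Cstl1, a cystatin-like protein, likewise had this order and rose 4.52-fold. Gramd2 rose 4.51-fold, Odf3b, of the outer dense fibre family, 4.31-fold, and Ifitm7, of the interferon-induced transmembrane family, 4.21-fold. The probe set of Hmgb1-rs17 (4.49-fold) may read copies of Hmgb1. Gxylt1, a xylosyltransferase that extends sugars on Notch, rose 3.80-fold with a gap of 1.39.

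Acer2, the alkaline ceramidase of the Golgi, cleaves ceramide to sphingosine. Its levels were 9.49, 9.48, 9.41 and 9.42 in VIII to XI, against 7.78, 7.72, 8.15 and 8.10 in IV to VII. Its SD was 0.04 in VIII to XI and 0.22 in IV to VII, and the 2.86-fold rise had an adjusted p of 0.001 in limma, the lowest value among the named genes. In the 4 arrays outside the comparison its levels were 8.33 and 7.97 in XII-I and 7.83 and 7.92 in II-IV, near those of IV to VII.

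Spam1 (probe set 10536729), the hyaluronidase of the sperm surface and acrosome, had 7.75 and 6.41 in VIII-IX and 7.46 and 9.35 in IX-XI, against 11.26 and 11.21 in IV-VI and 11.13 and 10.76 in VII. All VIII to XI arrays were lower, and IX-XI sample 2 was the highest of them. The 10.2-fold fall (difference -3.34 ± 0.51, SE, n = 4 each, adjusted p = 0.003 in limma) was the largest of all named genes. Tssk5, a testis-specific serine kinase, had 7.56, 7.27, 7.45 and 8.94 in VIII to XI, against 11.15, 11.10, 10.83 and 10.19 in IV to VII, an 8.08-fold fall. Atp10a, a flippase that moves phospholipids across membranes, fell 6.92-fold, and Fer1l5, of the ferlin family of membrane fusion proteins, 6.54-fold. Ppp4r3c-ps, annotated as a pseudogene, fell 7.18-fold, and Phf8-ps, likewise, 5.41-fold.

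Prss46, a serine protease of the testis, had 9.07, 8.86, 8.80 and 9.65 in VIII to XI, against 11.78, 12.19, 11.30 and 11.10 in IV to VII. Its gap of 1.44 was the widest among the lower genes, its fall was 5.64-fold, and its adjusted p was 0.0013 in limma. Mroh9, Fam186a, Serpina3a and Golga7b fell 6.14-, 6.12-, 5.56- and 5.10-fold, and Fam228b 3.95-fold with a gap of 1.14. Serpina3a encodes a serine protease inhibitor, and the protein of Golga7b takes part in palmitoylation. In each of these genes IX-XI sample 2 was the highest VIII to XI array or level with it.

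**Figure D2:**
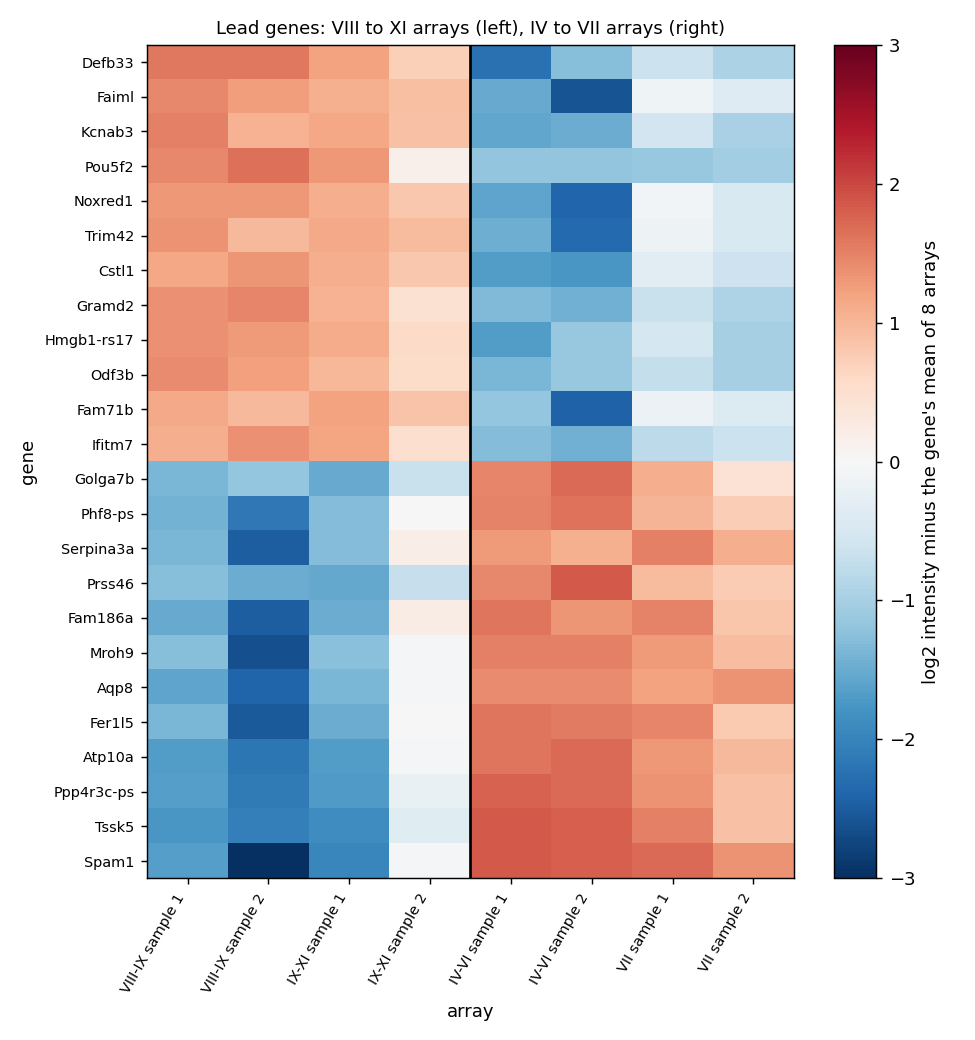
Colour gives the log2 intensity minus the gene's mean over 8 arrays, for the 12 genes with the largest rise (top) and the 12 with the largest fall (bottom); columns are arrays, VIII to XI left of the line. No gene overlaps between groups, because the genes were chosen on that condition. IX-XI sample 2 is the palest VIII to XI array for most genes.

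The pooled difference was also divided into the 3 steps between neighbouring groups, as a description of the genes it had selected. Of the 491 genes with a called difference of at least 2-fold, the step from VII to VIII-IX was the largest of the 3 steps in 431 (87.78%), and the step from IV-VI to VII in 60 (12.22%). The last step, to IX-XI, was the largest in 0. The pooled difference counts the middle step with more weight than the outer ones, so the selection favours this order, and the counts do not test where the change lay. Among the higher genes, the median steps were 0.59 from IV-VI to VII, 1.18 from VII to VIII-IX and -0.24 for the last step. Among the lower genes they were -0.38, -1.35 and 0.51. For 52 of the 60 genes with their main step before VII the direction was upward, as in Faiml, Trim42 and Fam71b.

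Within each group, no gene passed the threshold. In limma fitted to all 12 arrays, VII against IV-VI called 0 genes (0%), with 1183 at an unadjusted p under 0.05 and a lowest adjusted p of 0.5966. IX-XI against VIII-IX called 0 genes (0%), with 925 at an unadjusted p under 0.05 and a lowest adjusted p of 0.7566. With VII sample 1 left out, 393 genes passed for VII against IV-VI, and with VIII-IX sample 2 left out, 7 passed for IX-XI against VIII-IX.

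Each array was placed between the group means, with 0 for the mean of IV to VII and 1 for the mean of VIII to XI. For the 234 higher and 257 lower genes, the VIII-IX arrays lay at medians of 1.02 to 1.32, IX-XI sample 1 at 1.02 in both, and IX-XI sample 2 at 0.83 (higher) and 0.61 (lower). The IV-VI arrays lay at -0.27 to -0.12, and VII arrays at 0.03 to 0.27. IX-XI sample 2 was the VIII to XI array closest to the other group in 65.31% of called genes. Outside the comparison, XII-I sample 1 was at 0.73 and 0.94, XII-I sample 2 at 0.13 and 0.34, II-IV sample 1 at -0.19 and -0.11, and II-IV sample 2 at 0.10 and 0.27. On this scale the XII-I samples differed from each other by more than did the samples of any group in the comparison. The genes were chosen by a p-value that favours little spread within the compared arrays, so the choice itself favours this order. Over all genes, the 2 arrays of a group correlated at 0.9877 in XII-I and 0.9873 in II-IV. In the compared groups this correlation was 0.99 (VII) to 0.9952 (IV-VI).

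**Figure D3:**
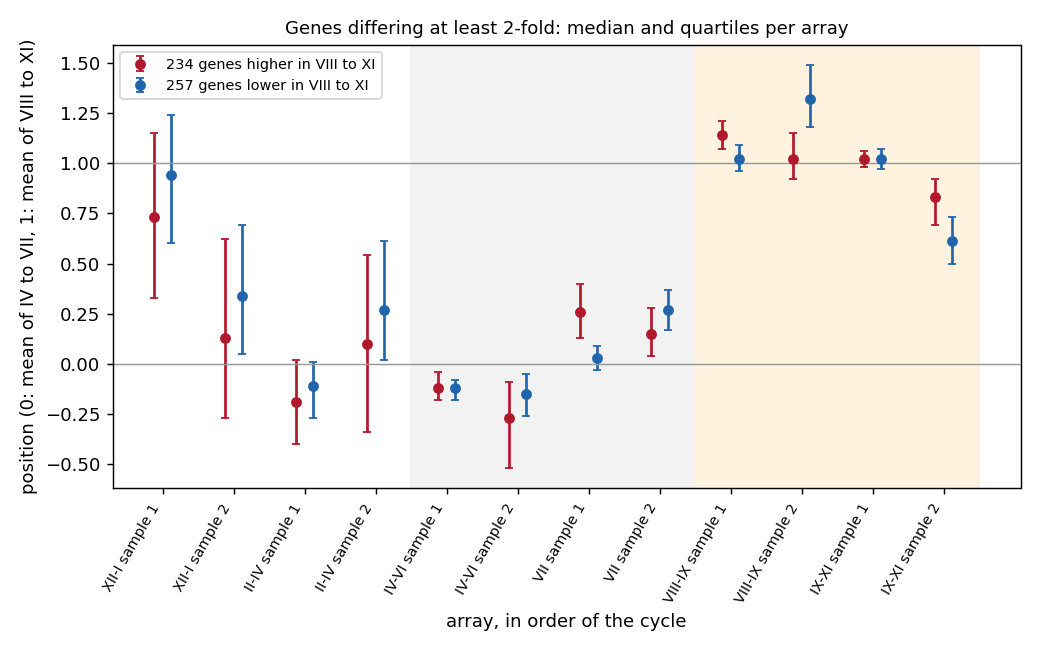
The median position (points, bars from the lower to the upper quartile) of the 234 higher and the 257 lower genes on each array, on a scale where 0 is the mean of IV to VII and 1 that of VIII to XI, with the arrays in order of the cycle and the VIII to XI arrays shaded orange. The VIII-IX arrays lie at or above 1, and IX-XI sample 2 below them.

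In the retinoid genes, 2 of 22 measured members of uptake and retinoic acid synthesis were higher (9.09%), 3 lower (13.64%) and 17 not called. Over all genes 12.9% were higher and 10.7% lower. The list median was 0.02, against 0.04 over all genes. Without VII sample 1 or without VII sample 2, 5 were lower. Rdh10, which oxidizes retinol to retinal in the first step to retinoic acid, had 11.39, 11.14, 11.45 and 11.31 in VIII to XI, against 9.52 and 9.05 in IV-VI and 10.39 and 10.27 in VII. All VIII to XI arrays were higher, by 2.85-fold (difference 1.51 ± 0.27, SE, n = 4 each, adjusted p = 0.0051 in limma), and VII lay between. Rdh11, which acts on retinal and retinol, was also higher (1.26-fold), by a call that failed when any array other than IV-VI sample 2 and IX-XI sample 2 was left out (highest adjusted p 0.081).

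Adh7, an alcohol dehydrogenase able to oxidize retinol, had 7.80, 8.07, 7.88 and 8.35 in VIII to XI, against 9.70, 10.03, 9.36 and 8.87 in IV to VII, a 2.75-fold fall with no overlap. Aldh1a7, a close relative of the retinal dehydrogenase gene Aldh1a1, fell 1.79-fold. Lrat, which esterifies retinol for storage, fell 1.58-fold; its adjusted p was 0.018, and 0.058 without IV-VI sample 1 and 0.059 without IX-XI sample 1. Aldh1a2, the retinal dehydrogenase of late germ cells, differed by 0.15 (adjusted p = 0.20) and Stra6, the retinol transporter, by 0.62 (adjusted p = 0.19).

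Of 13 members of binding, degradation and reception, 2 were higher (15.38%), 2 lower (15.38%) and 9 not called, with a median of 0.04. The shares of all genes were 12.9% and 10.7%. Rxrg, which forms dimers with retinoic acid receptors, had 8.04, 7.79, 7.70 and 7.47 in VIII to XI, against 6.77, 6.72, 6.96 and 6.90 in IV to VII, a 1.88-fold rise (adjusted p = 0.002 in limma). Cyp26a1, which degrades retinoic acid and is induced by it, had 7.29, 6.93, 6.91 and 6.77 in VIII to XI, against 6.26, 6.23, 6.41 and 6.38 in IV to VII, a 1.57-fold rise. Both genes had weak signals, among the dimmest 30% of genes, which the dim filter removed. Cyp26a1 stood at percentile 15.7 of mean level. Crabp1, a cellular binding protein of retinoic acid, fell 1.45-fold without overlap. Ncoa1, a coactivator of nuclear receptors, fell 1.22-fold, and its call failed without IV-VI sample 1, IV-VI sample 2, VII sample 1, VIII-IX sample 2 or IX-XI sample 1 (adjusted p up to 0.083). Rara and Rxra, expressed in Sertoli and germ cells, differed by 0.15 (adjusted p = 0.23) and 0.02 (adjusted p = 0.95).

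Stra8 had 8.47, 8.31, 8.47 and 8.34 in VIII to XI, against 7.29 and 6.90 in IV-VI and 7.58 and 8.05 in VII. All VIII to XI arrays were higher, by 1.92-fold (difference 0.95 ± 0.20, SE, n = 4 each, adjusted p = 0.011 in limma), and VII sample 2 was the nearest. Rec8, the meiotic cohesin subunit that retinoic acid also induces, had 9.20, 8.51, 9.15 and 10.04 in VIII to XI, against 10.97, 10.91, 10.76 and 10.44 in IV to VII. It fell 2.92-fold (adjusted p = 0.0054), opposite to Stra8, and again the IX-XI sample 2 value lay closest to IV to VII.

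**Figure D4:**
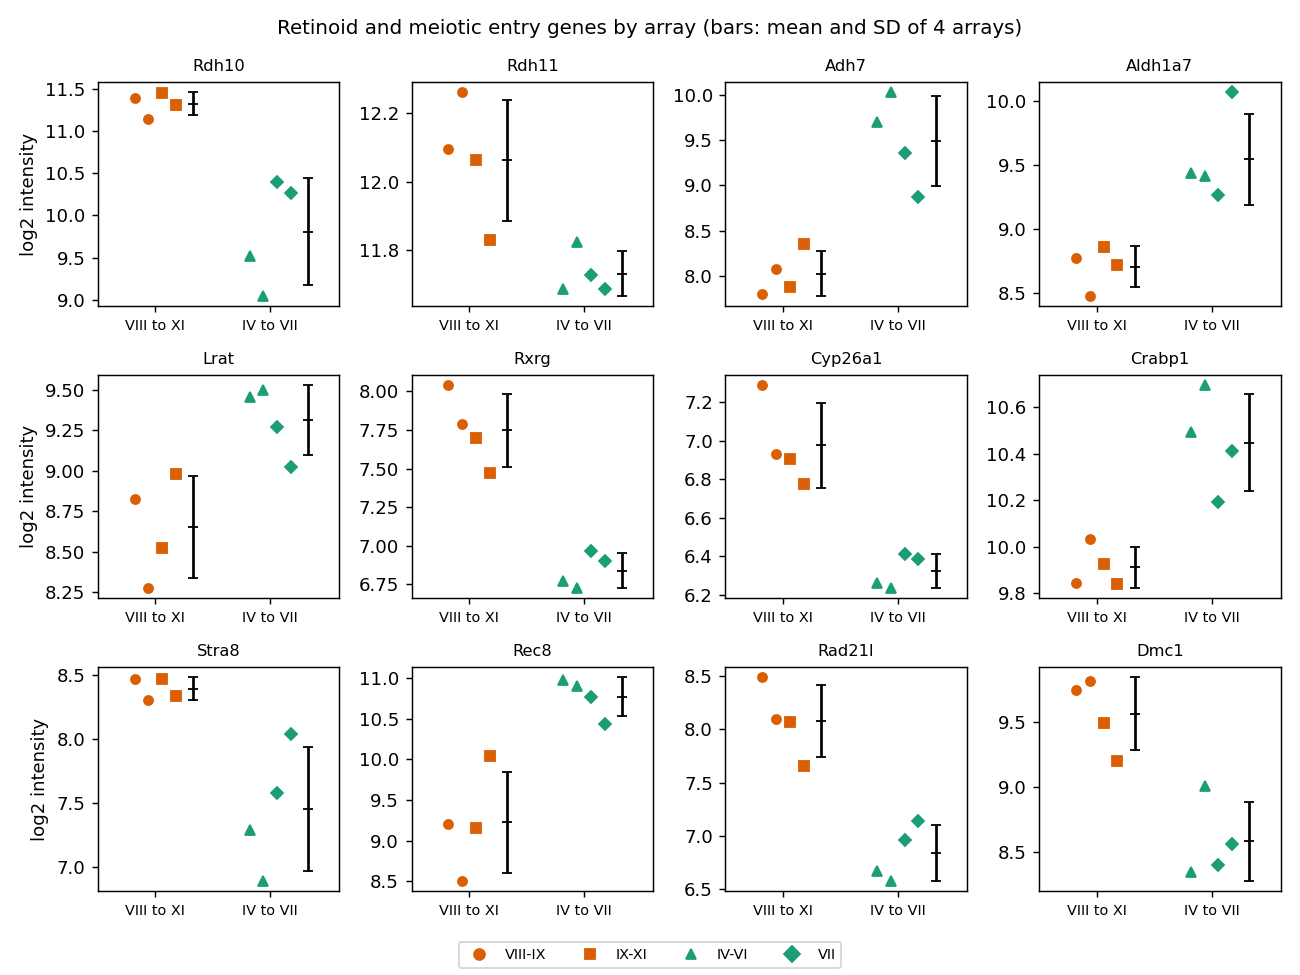
Log2 intensity of each array, with VIII to XI (orange) left of IV to VII (green), and the mean and SD of 4 arrays, for 12 retinoid and meiotic genes; each panel has its own y scale. Rdh10, Rxrg, Cyp26a1, Stra8, Rad21l and Dmc1 are higher in VIII to XI, and Adh7, Aldh1a7, Crabp1 and Rec8 lower, with no overlap.

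Genes of meiotic entry and early prophase went both ways: 9 of 37 were higher (24.32%), 8 lower (21.62%) and 20 not called, with a median of 0.01. Over all genes the shares were 12.9% and 10.7%. The higher and lower counts were both 5 without IV-VI sample 1 and without IX-XI sample 1. Rad21l, a meiosis-specific cohesin subunit, rose 2.37-fold, with 8.49, 8.10, 8.07 and 7.66 in VIII to XI, against 6.67, 6.58, 6.96 and 7.14 in IV to VII. Dmc1, the recombinase of meiotic strand exchange, rose 1.97-fold. Tex15, needed for repair of meiotic breaks, had 9.70, 9.49, 9.61 and 9.84 in VIII to XI, against 10.81, 10.94, 10.58 and 10.43 in IV to VII, a 2.04-fold fall. Among DNA replication genes, 7 of 42 were higher (16.67%) and 5 lower (11.9%), near the 12.9% and 10.7% of all genes (median 0.06). The counts were 4 and 3 without IV-VI sample 1, VIII-IX sample 2 or IX-XI sample 1. Without IV-VI sample 2, 3 were lower. Geminin (Gmnn), which blocks relicensing, rose 1.47-fold and Pola2, of DNA polymerase alpha, 1.44-fold. Ccna2, cyclin A2, fell 1.65-fold, and Mcm3, of the replicative helicase, 1.61-fold.

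Of 16 genes of differentiating spermatogonia, 2 were higher (12.5%) and 6 lower (37.5%), against 12.9% and 10.7% of all genes, with a median of -0.12. Without VIII-IX sample 2 or IX-XI sample 1, 3 were lower. Kit, the receptor whose appearance marks differentiation, had 8.87, 8.64, 8.82 and 8.84 in VIII to XI, against 8.97, 9.12, 9.06 and 9.18 in IV to VII. All VIII to XI arrays were lower, by 1.22-fold (adjusted p = 0.021), but not past the threshold without IV-VI sample 2 (0.053), VIII-IX sample 2 (0.05) or IX-XI sample 1 (0.055). Ccnd1, cyclin D1, and Dmrt1, a transcription factor that keeps spermatogonia out of meiosis, fell 1.49- and 1.38-fold. Sohlh2, a transcription factor of differentiation, fell 1.60-fold, a call kept when IV-VI sample 2, VII sample 2 or IX-XI sample 2 was left out but lost without any other array (adjusted p up to 0.086). Prss50, a protease of the testis, rose 1.78-fold.

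Of 25 genes of undifferentiated spermatogonia, 2 were higher, 2 lower and 21 not called (median 0.08). Each share was 8%, against 12.9% higher and 10.7% lower over all genes. Lhx1, a homeobox gene of the stem cell fraction, had 8.16, 8.18, 7.84 and 7.79 in VIII to XI, against 7.15, 7.23, 7.27 and 7.20 in IV to VII, a 1.72-fold rise without overlap. Foxo1, a transcription factor of stem cell maintenance, and Shisa6 fell 1.29- and 1.30-fold. Eomes rose 1.23-fold, a call lost without any array other than VII sample 2 and VIII-IX sample 1 (adjusted p up to 0.10), and 0.057 without VII sample 2 and IX-XI sample 2 together. Gfra1, the GDNF receptor of these cells, differed by 0.02 (adjusted p = 0.89).

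Of 41 genes of late pachytene, diplotene and meiotic division, 13 were higher (31.71%), 3 lower (7.317%) and 25 not called, with a median of 0.20. Over all genes the shares were 12.9% and 10.7%. Without VII sample 2 and IX-XI sample 2, 17 were higher and 3 lower, and without VIII-IX sample 2, 5 were lower. Ccnb3, cyclin B3, had 8.28, 8.69, 7.93 and 7.17 in VIII to XI, against 6.39, 6.62, 6.61 and 6.72 in IV to VII, a 2.70-fold rise. Fbxo43, which restrains the anaphase-promoting complex in meiosis, rose 2.05-fold. Aurka, a spindle kinase, rose 1.73-fold with overlapping arrays, and the call was lost without any array other than IV-VI sample 2 and IX-XI sample 2 (adjusted p up to 0.075). Cdc25c, a phosphatase that activates CDK1, fell 1.76-fold.

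The spermatid lists divided. Of 40 acrosome and round spermatid genes, 15 were lower (37.5%, against 10.7% of all genes), 2 higher and 23 not called, and the median was -0.24. The lower count was 23 without VII sample 2 and IX-XI sample 2. It was 4 without IV-VI sample 1 or VII sample 1, 5 without IX-XI sample 1, 6 without IV-VI sample 2 and 7 without VIII-IX sample 1, while the median lay between -0.28 and -0.20 over the 8 fits that left out an array. Beside Spam1, the largest falls were those of Sun5, which anchors the sperm head to the tail (2.09-fold, with 11.68, 10.80, 11.47 and 12.15 in VIII to XI, against 12.68, 12.52, 12.66 and 12.50 in IV to VII), and the acrosomal protein Spaca5 (2.02-fold). The Spaca5 call was lost without either IV-VI array, VII sample 1, VIII-IX sample 1 or IX-XI sample 1 (adjusted p up to 0.09). Calr3, a calreticulin of the testis that folds sperm surface proteins, rose 2.26-fold, and Gopc, needed to form the acrosome, by 0.63 (adjusted p = 0.0034); they are the 2 higher members, and 4 were higher without IX-XI sample 2.

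Of 17 genes of spermatid nuclear condensation, 8 were higher (47.06%, against 12.9% of all genes), 1 lower and 8 not called, with a median of 0.24; 7 were higher without VII sample 2 and IX-XI sample 2, and 6 to 8 when any array was left out. The median was 0.14 without VII sample 2 or without VIII-IX sample 1, and up to 0.31 over the 8 fits. Transition proteins replace histones before protamines do. Tnp1 had 13.03, 12.98, 12.92 and 12.59 in VIII to XI, against 10.65 and 9.74 in IV-VI and 11.70 and 11.60 in VII. No array overlapped, the rise was 3.89-fold (difference 1.96 ± 0.38, SE, n = 4 each, adjusted p = 0.0076 in limma), and VII again lay between. Tnp2 rose 2.36-fold, and H1f7, the linker histone of elongating spermatids, 1.63-fold. Prm1, protamine 1, rose by 0.58 (adjusted p = 0.021), and Prm2 differed by 0.13 (adjusted p = 0.21). Nutm1, whose protein recruits p300 for histone acetylation, was the lower member, with 8.18, 7.77, 8.35 and 9.28 in VIII to XI, against 10.56, 10.94, 10.30 and 9.88 in IV to VII, a 4.07-fold fall.

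Sperm tail genes were split, with 10 of 55 higher (18.18%, against 12.9% of all genes), 11 lower (20%, against 10.7%) and a median of 0.03. Without IV-VI sample 1, 7 were lower. Fsip1, a fibrous sheath protein, fell 3.16-fold, with 9.32, 8.94, 9.64 and 10.37 in VIII to XI, against 11.34, 11.46, 11.14 and 10.96 in IV to VII. Spag6, of the central apparatus, fell 2.67-fold and Catsper3, a subunit of the sperm calcium channel, 2.34-fold, the call of Catsper3 being lost without either IV-VI array, VII sample 1, VIII-IX sample 1 or IX-XI sample 1 (adjusted p up to 0.075). Dnah2, an axonemal dynein heavy chain, had 11.53, 11.60, 11.50 and 11.17 in VIII to XI, against 10.31, 10.20, 10.60 and 10.47 in IV to VII, a 2.07-fold rise (adjusted p = 0.0014).

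Further tail genes are given by family; they were chosen after their values were seen. Of the CatSper calcium channel, the pore subunit Catsper4 had 11.03, 10.54, 11.18 and 11.53 in VIII to XI, against 12.03, 11.89, 11.91 and 11.74 in IV to VII, a 1.76-fold fall. The auxiliary subunit Catsperd rose 1.42-fold, with 12.02, 12.08, 11.88 and 11.61 in VIII to XI, against 11.30, 11.43, 11.42 and 11.41 in IV to VII. Pore subunit Catsper1 fell 1.51-fold and auxiliary Catsperb rose 1.34-fold, each call kept in 2 of 8 fits, and Catsper2 differed by -0.04 (adjusted p = 0.84). Axonemal dynein heavy chains Dnah1 and Dnah17 rose 1.46- and 1.49-fold in all 8 fits and Dnah8 1.39-fold in 4 of them. Of 5 tektins, filament proteins of the doublet microtubules, 4 were called lower, where 10.7% of all genes were. Tekt4, Tekt2 and Tekt3 fell 1.64-, 1.58- and 1.39-fold in all 8 fits and Tekt1 1.25-fold in 7 of them (highest adjusted p 0.053), and Tekt5 differed by 0.51 (adjusted p = 0.075).

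In the piRNA pathway 3 of 24 were higher (12.5%) and 6 lower (25%), against 12.9% and 10.7% of all genes (median -0.03). The lower count was 1 without IV-VI sample 1 or IX-XI sample 1. It was 2 without IV-VI sample 2, VII sample 1 or VIII-IX sample 1, and 3 without VIII-IX sample 2. Henmt1, which methylates piRNA ends, rose 1.5-fold. Piwil2, a PIWI protein, fell 1.46-fold, with an adjusted p of 0.055 without IV-VI sample 1. Tdrd7 and Asz1 fell 1.38- and 1.31-fold, but Tdrd7 lost its call without any array other than VII sample 2 and VIII-IX sample 2 (adjusted p up to 0.096), and Asz1 without any other than VII sample 2 and IX-XI sample 2 (up to 0.093).

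Whole testes were read, so the cell type behind each of these values was not tested. Of the genes listed for Sertoli cell response to androgen and FSH, Aqp8, a water channel, had the largest called difference. It had 7.96, 7.13, 8.17 and 9.51 in VIII to XI, against 10.97, 10.96, 10.76 and 10.89 in IV to VII. The IV to VII arrays agreed closely, VII sample 2 among them, and the fall was 6.51-fold (adjusted p = 0.0029 in limma). In the list of androgen and FSH response, 1 of 32 was higher (3.125%) and 3 lower (9.375%), against 12.9% and 10.7% of all genes (median -0.10). The counts were 7 higher and 7 lower without VII sample 2 and IX-XI sample 2. Without VII sample 2 alone they were 4 and 5, without IX-XI sample 2 alone 2 and 5, and without VIII-IX sample 2, 2 were higher. VII sample 2 had the highest median level of this list, 0.25 above the mean of the 8 arrays, against -0.07 to -0.01 on the other 7. The other called members were Nrg3, a neuregulin (1.52-fold higher), Eppin, a protease inhibitor on sperm (1.56-fold lower, adjusted p = 0.051 without IX-XI sample 1), and Lrp8, a selenoprotein P receptor (1.31-fold lower). Kitl and Gdnf, growth factors of spermatogonia, differed by -0.43 (adjusted p = 0.085) and -0.25 (adjusted p = 0.13).

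Plin2, which coats lipid droplets, had 9.65, 8.58, 9.96 and 11.19 in VIII to XI, against 11.96, 11.74, 11.86 and 11.69 in IV to VII, a 3.90-fold fall. All VIII to XI arrays were lower, from 8.58 in VIII-IX sample 2 to 11.19 in IX-XI sample 2. Plin2 was 1 of 33 genes of engulfment, lysosome and lipid handling. In this list 3 were higher and 3 lower (9.09% each, against 12.9% and 10.7% of all genes), with a median of -0.09. The median level of the list was 0.28 above the mean on VII sample 2 and -0.08 to 0.02 on the others. Without IV-VI sample 1 or IX-XI sample 1, 1 was higher, and without IV-VI sample 2, 1 was lower. Gas6, the ligand of engulfment receptors, fell 1.53-fold and Cd36, a scavenger receptor, 1.67-fold; both lost their calls without VII sample 2 and IX-XI sample 2 (adjusted p = 0.10 and 0.062). Cd36 also lost it without IV-VI sample 2, either VII array or VIII-IX sample 2, and Gas6 without either IV-VI array, VII sample 2 or either IX-XI array (adjusted p up to 0.082 and 0.081). Elmo1, of the engulfment signal, rose 1.40-fold, with adjusted p of 0.063 without IV-VI sample 1 and 0.052 without IX-XI sample 1.

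Of 33 genes of sperm release and the apical junction, 1 was higher (3.03%), 7 lower (21.21%) and 25 not called, with a median of -0.17. Over all genes 12.9% were higher and 10.7% lower. The lower count was 2 without IV-VI sample 1 or IX-XI sample 1 and 3 without VIII-IX sample 2. The higher count was 3 without VII sample 2, alone or together with IX-XI sample 2. Amph, amphiphysin, of the tubulobulbar complexes that take junctions up, had 8.62, 8.30, 8.52 and 8.77 in VIII to XI, against 9.53, 9.65, 9.32 and 8.92 in IV to VII, a 1.75-fold fall. Cttn, cortactin, of the same structures, fell 1.46-fold, and Myo7a, an unconventional myosin, 1.28-fold (adjusted p up to 0.076 without IV-VI sample 1, VII sample 1, VIII-IX sample 2 or IX-XI sample 1). Nectin2, the Sertoli adhesion protein, was the higher member (1.69-fold), with 9.64 in VII sample 2 overlapping the VIII to XI arrays, and its call was lost without any array other than VII sample 2 and IX-XI sample 2 (adjusted p up to 0.081).

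In the blood-testis barrier, which opens and reforms around spermatocytes at stage VIII, 4 of 26 genes were higher and 6 lower (median -0.06). These shares were 15.38% and 23.08%, against 12.9% and 10.7% of all genes. The lower count was 2 without IX-XI sample 1 and 3 without IV-VI sample 1 or VIII-IX sample 2. Cldn13, a claudin, had 9.19, 8.21, 8.89 and 8.75 in VIII to XI, against 7.23, 7.17, 7.96 and 7.66 in IV to VII, a 2.39-fold rise. Ocln, occludin, rose 1.81-fold and Cdh2, N-cadherin, 1.80-fold. Jam2, an adhesion molecule, fell 1.73-fold, with 11.25 in VII sample 2 above the 10.47 to 10.59 of the other IV to VII arrays. Its call was lost without VIII-IX sample 1 (0.053), VIII-IX sample 2 (0.058) or IX-XI sample 1 (0.056). Tjp1, the scaffold ZO-1, fell 1.29-fold, with an SD of 0.07 in both groups.

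In cholesterol synthesis, 3 of 20 were higher (15%) and 6 lower (30%), against 12.9% and 10.7% of all genes (median -0.10). Insig1, which restrains sterol synthesis, rose 2.02-fold, with 10.14, 9.94, 10.04 and 9.56 in VIII to XI, against 8.78, 8.89, 9.02 and 8.95 in IV to VII. Fdps, of isoprenoid synthesis, rose 1.46-fold, with adjusted p of 0.058 without IV-VI sample 1 and 0.06 without IX-XI sample 1. Sqle and Ebp, sterol enzymes, fell 1.43- and 1.34-fold.

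Markers of other cells gave a check on what the testes held. Their counts stand beside the shares over all genes, 12.9% higher and 10.7% lower. Of 8 Leydig cell markers measured, 0 rose and 2 fell at limma's threshold, and all 8 differences were negative, with a median of -0.39. Their summed intensity was 11047 to 17199 in VIII to XI, against 17523 to 25798 in IV to VII, the extremes being IX-XI sample 2 and VII sample 2. Star, which carries cholesterol into mitochondria, fell 1.82-fold and Cyp17a1, a steroid hydroxylase, 1.32-fold. Without VII sample 2 and IX-XI sample 2 the median of the list was -0.23 and neither call held (adjusted p = 0.15 and 0.087). Both were also lost without any array other than IV-VI sample 2 and IX-XI sample 1 (adjusted p up to 0.11), and 4 markers fell without IV-VI sample 2. Cyp11a1, the side-chain cleavage enzyme, differed by -0.82 (adjusted p = 0.054).

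Of 14 Sertoli markers 1 fell (Tjp1), and 2 without IV-VI sample 2, VII sample 2 or VIII-IX sample 1. Their median was -0.19, -0.06 without VII sample 2 and -0.09 without VII sample 2 and IX-XI sample 2. Macrophage markers fell in 1 of 10, with Adgre1 1.62-fold lower (3 of 10 rose without VII sample 2), and peritubular markers rose in 1 of 8, Mylk, a myosin kinase (1.34-fold). Of 9 endothelial markers, Egfl7 (1.44-fold) and Tie1 (1.16-fold) rose, and Cdh5, VE-cadherin, fell 1.31-fold. These are 22.22% and 11.11%, against 12.9% and 10.7% of all genes. In epididymis markers, Rnase10 (1.67-fold) and Lcn12 (1.19-fold) rose among 11 (18.18%), at levels of 6.99 and 8.26 in VIII to XI. Of 15 immediate early and stress genes 4 rose (26.67%): Jund (1.53-fold), Fosb (1.43-fold), Ddit3 (1.40-fold) and Hspa1a (1.31-fold). Without IV-VI sample 1, VIII-IX sample 1 or IX-XI sample 1, 2 rose. Cdh5 and Rnase10 lost their calls without any array other than IV-VI sample 2 and IX-XI sample 2 (adjusted p up to 0.091 and 0.10). Tie1, Lcn12, Fosb and Hspa1a each lost theirs without IV-VI sample 1 or IX-XI sample 1, among others (adjusted p up to 0.093). Blood markers could be read for 2 of 10 genes, and neither was called. The part of these cells in the results above was not tested.

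**Figure D5:**
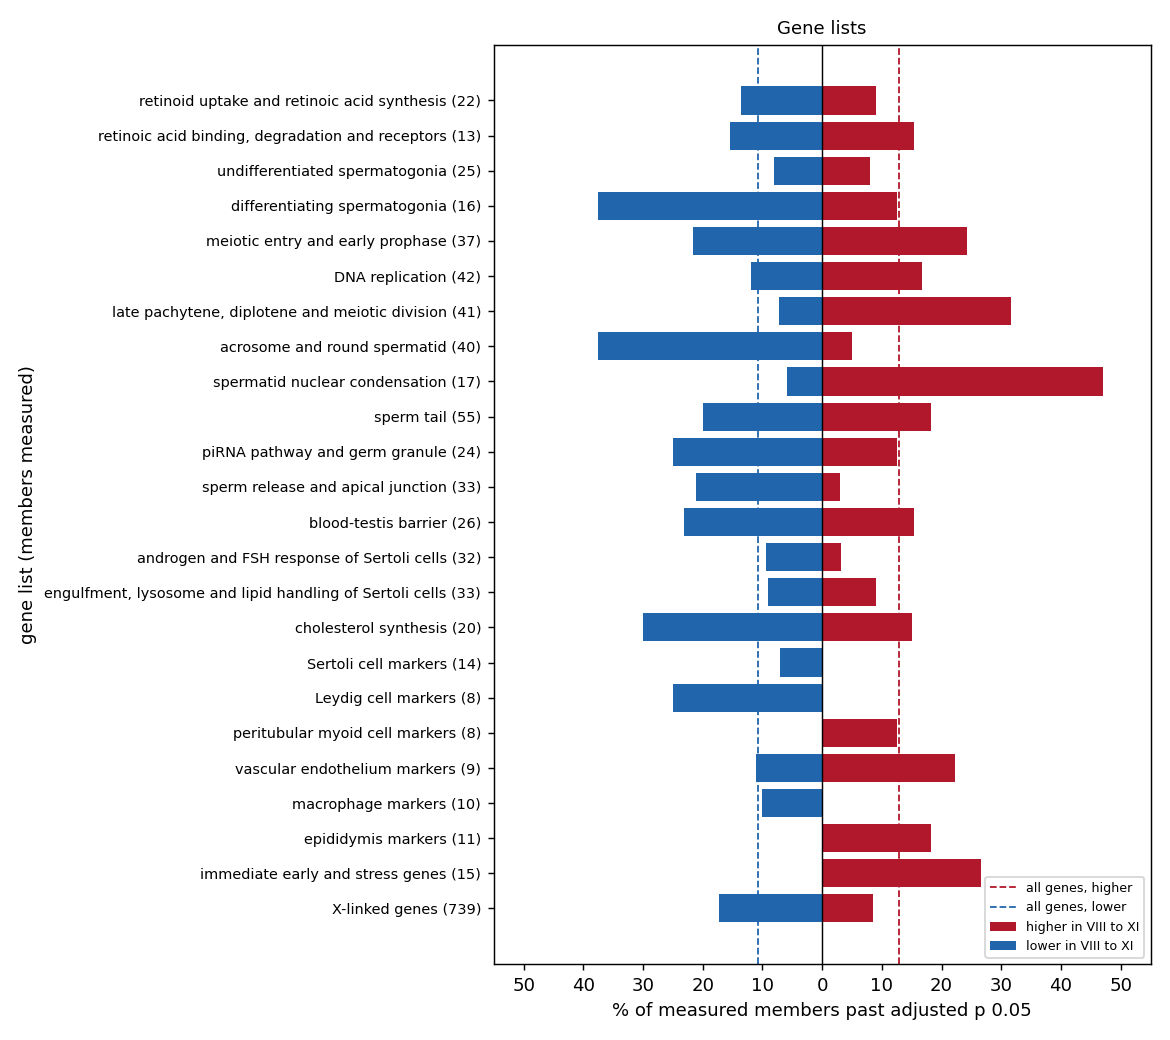
For each list, bars give the percentage of measured members that were higher (red, right) or lower (blue, left) in VIII to XI at an adjusted p of 0.05, with the number measured in parentheses; dashed lines give the shares of all genes, 12.9% and 10.7%. Condensation genes reach 47.06% higher, and acrosome and differentiating spermatogonia genes 37.5% lower.

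Genes of the sex chromosomes were counted as well. Of 739 X-linked genes, 63 were higher (8.525%) and 128 lower (17.32%), against 12.9% and 10.7% of all genes, with medians of -0.02 and 0.04. Without IX-XI sample 1 the X-linked counts were 35 and 79 (1589 and 1317 over all genes). Without IV-VI sample 1 they were 39 and 84 (1642 and 1247 over all genes). Without VIII-IX sample 2, 41 were higher (1929 over all genes). Of 9 Y-linked genes, 1 was higher (11.11%) and 4 lower (44.44%). This list was added after earlier results had been seen, and the counts are a description.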

How the data were processed

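RNA of synchronized adult mouse testes was read on Mouse Gene 1.0 ST arrays. The authors deposited linear intensity values, 1 per probe set, from RMA (background correction, quantile normalization and probe summary), per the submitters' processing notes, which name no version. RMA makes the array distributions alike, so a change in total RNA cannot be seen. Intensities ran from 24.97 to 21760, array medians from 296.9 to 309.1, and log2 was taken without an offset. Per the labels' protocols, 100 ng of RNA was amplified and 3.75 ug of cDNA labelled.

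Of 28853 probe sets, 21797 had a single symbol, 1613 had several and 5443 had none listed. Each of 19946 genes was read by its brightest set (mean log2 of 12 arrays), chosen among several for 999 genes. Multicopy genes may be read together. The 2-group test used limma 3.58.1 under R 4.3.3 (lmFit and eBayes on 8 arrays, 6 residual degrees of freedom), with Benjamini-Hochberg adjustment over all genes and a threshold of 0.05. Differences within a group were tested with 6 group means on all 12 arrays. The number of arrays limits the precision.

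Named were the 12 largest differences and the 5 widest gaps in each direction among called genes without overlap, up to 4 called members of each list, all called retinoid members, and 7 set genes; predicted genes, small RNAs and olfactory or vomeronasal receptors were not named. Others complete a count or were chosen after their values were seen. The members and the 24 lists (597 entries, 44 not measured) were chosen with earlier results of these data known, and the X-linked and Y-linked lists after them. Promoter windows are from RefSeq, GRCm38.p6, matched by Entrez ID. Named genes on chromosome 18 were left out, and windows were kept for 78 of 106 named genes. The percentages of windows with a match include chromosome 18. The fit was tested on simulated data. Alternatives changed the normalization, the probe set rule, the dim filter, the variance model, the groups, a replicate block and the arrays used.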

Additional observations from a re-analysis of the deposited data

Results flagged for a closer look

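Among 212 sets of 4 arrays (106 named genes in each group), 4 held an array far from the other 3 by Dixon's test. The test's usual rate of 1 in 20 sets does not apply here. Each set pools 2 stage groups, and the genes were mostly chosen by their values on these same arrays. Jam2, the junctional adhesion molecule, was at 11.25 on VII sample 2, against 10.47 to 10.59 on the other IV to VII arrays. Fer1l5 was at 10.63 on VII sample 2, against 11.30 to 11.44. Cdh5, VE-cadherin, was at 8.90 on IX-XI sample 2, against 8.54 to 8.59 on the other VIII to XI arrays. Aurka was at 10.84 on IV-VI sample 2, against 10.24 to 10.26 on the other IV to VII arrays.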

How the results depend on the processing

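The number of genes called ranged from 2889 (without IV-VI sample 1) to 5104 when 1 array was left out, that of higher genes from 1589 to 3102, and that of lower genes from 1247 to 2376. Array weights gave 12347 (7475 higher and 4872 lower), from an estimate that did not converge. The other planned settings, among them a second quantile normalization, a dim filter and other variance models, kept the count within 1.5 times. Leaving out VII sample 2 and IX-XI sample 2 together, which was chosen after seeing the data, gave 5609. Groups share only the sample numbers 1 and 2, and deviations of same-numbered arrays correlated between -0.162 and 0.293, so the numbers were not taken to pair the samples. With the replicate block 4456 genes were called, and 1 for VII against IV-VI. Leaving out 1 array, with the lone sample taken to vary like the other groups, gave 0 to 393 genes for VII against IV-VI and 0 to 7 for IX-XI against VIII-IX. No named gene with a value turned its direction under any of these settings; the dim filter left 99 of 106, without Ccnb3, Cyp26a1, Eomes, Rad21l, Rnase10, Rxrg and Shisa6. With 6 group means on 12 arrays, 7 of 106 named genes missed the threshold (Asz1, Cd36, Eomes, Jund, Kit, Myo7a and Spaca5). Rnase10 missed it with the replicate block and after the second quantile normalization, Cyp17a1 with 4 group means, Cd36, Cyp17a1 and Star with array weights, and these 3, Eomes, Gas6 and Tie1 without VII sample 2 and IX-XI sample 2. The cause was not tested. The number of arrays limits the precision.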

Other observations

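Further genes of meiotic entry and early prophase, beyond those given above, were called in both directions; no explanation was tested. Prdm9, the histone methyltransferase that places recombination sites, ranged over 8.19 to 8.65 in VIII to XI, against 7.24 to 8.00 in IV to VII, a 1.71-fold rise (limma, adjusted p = 0.011). Mei1, needed for meiotic DNA breaks, rose 1.38-fold in all 8 fits that left out an array. Spo11, which cuts the DNA, rose 1.20-fold, Mei4 1.26-fold and Brca2, of strand repair, 1.29-fold, each in 3 of these fits. Meioc, a meiotic RNA regulator, rose 1.17-fold in 4. Sycp1, of the transverse filaments of the synaptonemal complex, fell 1.38-fold, averaging 10.73 ± 0.08 in VIII to XI and 11.19 ± 0.14 in IV to VII (SD, n = 4 each). Msh4, of the crossover pathway, fell 1.61-fold in all 8 fits. Cohesin genes were called both ways: Smc3 fell 1.40-fold in all 8 fits and Smc1b 1.18-fold in 3, beside the fall of Rec8 and the 2.37-fold rise of Rad21l. Ythdc2, the RNA-binding partner of Meioc, fell 1.31-fold in 3 fits. Of chromosome axis genes, Hormad2 fell 1.59-fold (adjusted p = 0.016, called in 6 fits), and Sycp3 and Hormad1 differed by 0.08 (adjusted p = 0.59) and -0.004 (adjusted p = 0.97).

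Of 3 lysozyme-like genes in the acrosome list, chosen after their values were seen, Lyzl1 fell 1.91-fold and Lyzl4 1.77-fold, each in all 8 fits, and Lyzl6 differed by -0.92 (adjusted p = 0.058). For all 3, IX-XI sample 2 was the highest of the VIII to XI arrays.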
